A study of Mus musculus with 31 samples.

Results

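The CD antigens are surface molecules of leukocytes and other cells that carry a number of the cluster of differentiation (CD) nomenclature. The genes described here were those whose mouse symbol is Cd followed by digits and at most a letter. The T cell receptor chains Cd3d, Cd3e, Cd3g and Cd247, the co-receptor Cd4, Cd44 and Cd74 were left out by the same rule. The rule found 62 probe sets for 47 genes, of 12422 probe sets that were not array controls and 8251 genes with a probe set of their own. It used gene names alone and no measured value.

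Arrays were hybridised with total RNA of the mouse T cell line D10.G4.1, which grew from a single helper T cell of type 2, so that all samples share the traits of this clone. Cells received the neuropeptide neuromedin U (NmU) for 0.8, 3, 6 or 12 h, or phosphate-buffered saline (PBS), the vehicle, for the same times. NmU was represented by 4 arrays at 0.8 h, 3 at 3 h, 4 at 6 h and 4 at 12 h, and PBS by 4 arrays at each time. The labels do not say whether replicates were separate cultures, so p-values reflect variation among these samples only, which may be technical, and the number of arrays limits the precision. Array pairs of a group correlated at 0.951 to 0.982 over 7930 probe sets, and PBS 3 h replicate 4 stood furthest from its group (median r 0.958, against at least 0.963 for the other arrays). Of 15 T cell markers listed, 8 had a probe set, and 7 of these lay above a signal of 20.2 on every PBS array, with Thy1 the exception (median 5.7). With the arrays as deposited NmU raised 352 and lowered 454 probe sets at 3 h, against 321 and 266 after scaling to a common median, and at 6 h 226 and 161, against 115 and 178.

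CD antigens fall into families with different work at the T cell surface. Co-stimulatory receptors such as Cd28 add to the signal of the T cell receptor. Tetraspanins organise receptors and integrins into membrane domains, and glycosylphosphatidylinositol (GPI) anchored proteins sit in the outer leaflet and serve as adhesion ligands or complement inhibitors. Other antigens of the series are known as markers of B cells, macrophages or endothelium. NmU acts on cells through G protein-coupled receptors, of which Nmur1 is known in D10.G4.1 cells.

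In PBS, the clone carried transcripts of a small set of T cell antigens and of most tetraspanins. Most of the members listed as antigens of B cells, antigen-presenting cells and myeloid cells were dim. A signal of 20.2, the 40th percentile of all values in the table, was taken as the threshold of a clear signal. No detection calls accompany the values. Of the 62 probe sets, 21 (33.9%) lay above this threshold on all 16 PBS arrays, 16 on some of them and 25 (40.3%) on none. Over all 12422 probe sets these shares were 50.4% on every PBS array and 27.7% on none. By gene, 17 had a probe set above the threshold on every PBS array, 16 on some and 14 on none. Signals of different probe sets are not comparable with each other, so each is set against the threshold only.

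Among 11 genes of T cell co-receptors and co-stimulatory receptors, 3 were above the threshold on every PBS array. Cd28, the receptor for Cd80 and Cd86, had a lowest, median and highest PBS signal of 691.6, 931.6 and 1152.3. Cd96, an immunoglobulin family receptor of T and NK cells, had 208.1, 310.4 and 424.1, and Cd7 had 24.8, 39.1 and 70.5.

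The adhesion receptor Cd2 (7.4, 21.15 and 31.9) and Cd27, the receptor of Cd70 (19.1, 29.95 and 39.6 for its brighter probe set), straddled the threshold. Cd6, a receptor of the adhesion molecule Alcam, had 17.5, 22.5 and 32, and Cd70 had 9.7, 12.75 and 25. Cd5, an inhibitor of T cell receptor signalling found on most T cells, had only 3.4, 6.05 and 20.9. Cd8a, the co-receptor of cytotoxic T cells, reached at most 6.5 on the PBS arrays, and the NK receptors Cd160 and Cd244a at most 16.7 and 16.9. On the same arrays, Cd3d ranged from 1078 to 1699.4 and Cd4 from 236.2 to 311.6. Each of Cd5 and Thy1 is measured here by a single probe set.

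Of 7 tetraspanin genes, 5 were above the threshold on every PBS array. Cd53 had a lowest, median and highest PBS signal of 1914.3, 2369 and 2772, Cd37 of 665, 845 and 952.3, and Cd81 of 34, 50.85 and 80.1. The brightest of 4 probe sets for Cd151 had 104.9, 123.1 and 182.5. The 2 brighter probe sets for Cd82 had 209, 298.5 and 381.2 (99584_at) and 66.5, 82.9 and 116 (99585_at). Cd9 and Cd63, tetraspanins of platelets and of lysosomes, reached at most 19.6 and 18.5.

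All 4 broadly expressed glycoproteins were above the threshold on every PBS array. Cd47, the ligand by which cells hold off phagocytes through the receptor Sirpa, had a lowest, median and highest PBS signal of 1192.9, 1389 and 1594.1 (103611_at) and of 428, 541.3 and 677.7 (95020_at). The sialomucin Cd164 had 859.7, 1216 and 1878.1, the transcobalamin receptor Cd320 had 150.2, 198.1 and 236.7, and Cd99 had 21.2, 32.55 and 49.7. Of the 7 GPI-anchored antigens and complement regulators, Cd52, a short glycopeptide of lymphocytes, had 2444.4, 2643 and 3263.5. Cd48, a ligand of Cd2 and Cd244a in the mouse, had 630.9, 748 and 938.1. The complement inhibitors Cd46 and Cd55 reached at most 7.2 and 6.2, and Cd24a, Cd59a and Cd59b lay above the threshold on some arrays.

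None of the 6 genes of the B7 family and of antigen-presenting cells (Cd200, Cd276, Cd40, Cd80, Cd83 and Cd86) lay above the threshold on every PBS array, and all 6 did on some. Of 5 B cell genes, Cd79a, a signalling chain of the B cell receptor, was above it throughout (22.4, 59.6 and 78.2) and its partner Cd79b on some arrays (3.7, 12.1 and 35.6). Cd22, Cd72 and Cd180 were above it on none. Of 7 myeloid, dendritic and endothelial genes, Cd14, a co-receptor for bacterial lipopolysaccharide, had 54.5, 71.25 and 123.3, and Cd68, a glycoprotein of lysosomes in macrophages, had 25, 34.55 and 44.4. Cd302, Cd34, Cd36 and Cd93 were above the threshold on no PBS array, and Cd5l on some.

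Most other macrophage and monocyte markers were dimmer against the threshold than Cd14 and Cd68. Of 13 measured macrophage and monocyte markers, Cd14 and Cd68 were the only 2 above the threshold on every PBS array, and 5 were above it on none. Those above it on none were Lyz2, Adgre1, Itgam, Marco and Mrc1, which reached at most 14.4, 10.4, 5.5, 4.5 and 9.5 on the PBS arrays. Some others of this list lay above the threshold on most of the 16 PBS arrays. The brighter Csf1r probe set did so on 14 (median 29.4), the brighter C1qb probe set on 12 (28.75) and C1qc on 10 (33.65). Of 12 measured B cell markers, 2 (Cd79a and Ms4a1) were above the threshold on every PBS array. Neither these counts nor any other value here separates a few cells of another type from a low level in every cell, since in bulk RNA fewer cells of a type and less RNA per cell cannot be told apart.

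**Figure D1:**
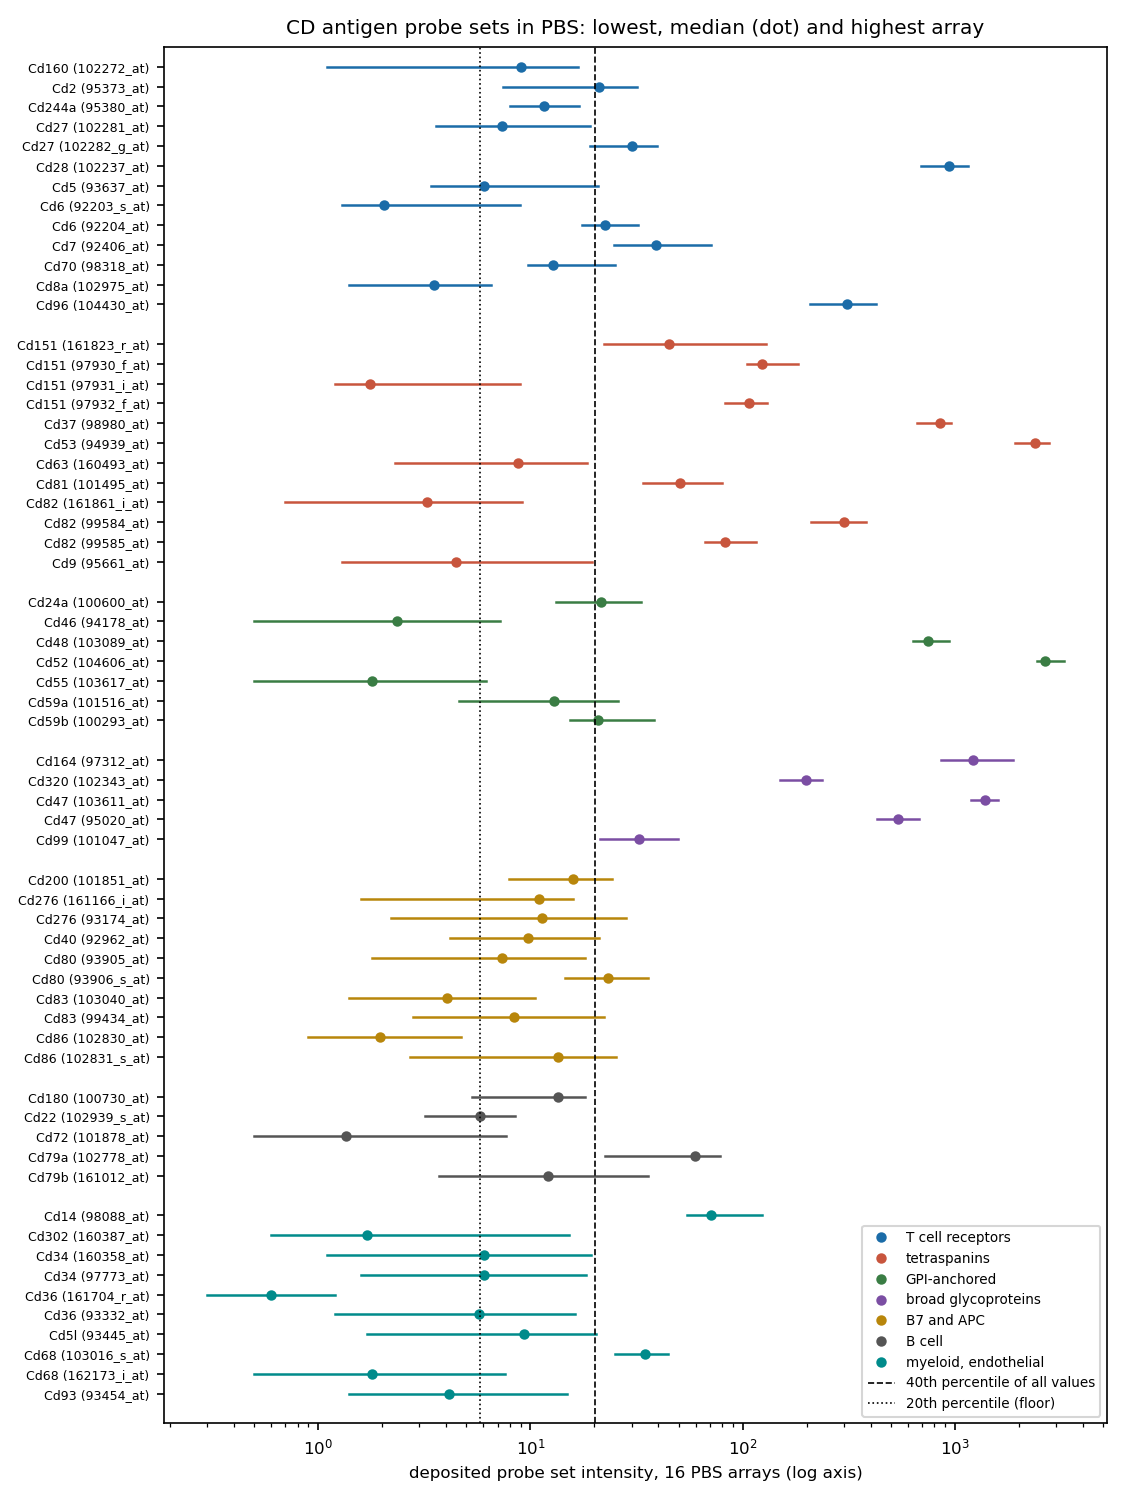
Deposited intensity of the 62 CD antigen probe sets on the 16 PBS arrays (horizontal log axis), grouped by role. Dots are medians, lines run from the lowest to the highest array, and the dashed and dotted lines mark 20.2 and 5.8. Cd28, Cd53, Cd47, Cd52 and Cd164 lie far to the right of the dashed line, while the B7 and antigen-presenting cell genes cross it or lie to its left.

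No CD antigen was called as changing with time in the absence of NmU. In PBS, 0 of the 29 probe sets that passed the filter changed with time (moderated F test of limma, lowest adjusted p = 0.405), against 0.0126% of all 7930 probe sets tested. At an unadjusted p under 0.05 there were 2 of 29 (Cd14 and Cd82 99585_at), and 693 of all 7930. The filter required a mean log2 signal above the threshold in at least 1 of the 8 groups, and the other 33 probe sets were not tested.

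Transcripts of 5 of the 25 genes with a tested probe set were called as changed with NmU at 1 time or more. Cd47 and Cd48 were called lower, and Cd53, Cd68 and Cd82 higher. Only the calls of Cd47 at 3 h and of Cd82 (99584_at) at 6 h held in every alternative fit. No share over all genes is given for the count by gene, and the shares below are by probe set. By probe set, 5 of 13 members with a mean signal over 100 were called at some time (38.5%, against 17% of all such probe sets). Of the dimmer members, 2 of 16 were (12.5%, against 8.98% of all dimmer ones). By the F test over the 4 times, 6 of 29 probe sets (20.7%) changed with NmU, against 11.6% of all probe sets tested. These were both probe sets of Cd47 (adjusted p = 1.18e-05 and 0.000139), Cd53 (0.0112), Cd68 (0.00756) and the 2 brighter ones of Cd82 (0.0008 and 0.0322). Cd48 (0.0593) and Cd37 (0.0714) missed the threshold of 0.05. The median log2 fold change of the 29 was -0.10, 0.07, 0.15 and 0.01 at 0.8, 3, 6 and 12 h, against -0.04, -0.03, 0.02 and -0.02 for all probe sets, with 8, 15, 19 and 15 of the 29 above 0.

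The 250 bases before the annotated start are shown for these genes because they were the ones called, a choice made on the measured values. Sequences are from RefSeq (GRCm38.p6), in which 33 of the 47 genes matched, and are written 5′ to 3′ on the strand of the gene. The windows are chr16:49855404-49855653 for Cd47 (plus strand), chr1:171681742-171681991 for Cd48 (plus strand) and chr3:106790150-106790399 for Cd53 (minus strand). Those of Cd68 and Cd82 are chr11:69666171-69666420 and chr2:93462951-93463200 (minus strand for both). For Cd47 the table lists 2 windows and for Cd82 it lists 4, and in each case the first listed is the one shown and searched. Capitals mark matches, on either strand, to the NFAT core GGAAA, the AP-1 motif TGANTCA, the core TGACG of the cyclic AMP response element or the Egr motif GCGNGGGCG, which did not overlap each other.
Cd47: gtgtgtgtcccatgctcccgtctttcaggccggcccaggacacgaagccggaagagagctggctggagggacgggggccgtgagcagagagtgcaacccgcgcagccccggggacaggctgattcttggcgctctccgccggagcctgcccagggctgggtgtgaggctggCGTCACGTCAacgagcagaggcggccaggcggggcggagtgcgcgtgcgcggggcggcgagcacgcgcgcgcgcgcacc
Cd48: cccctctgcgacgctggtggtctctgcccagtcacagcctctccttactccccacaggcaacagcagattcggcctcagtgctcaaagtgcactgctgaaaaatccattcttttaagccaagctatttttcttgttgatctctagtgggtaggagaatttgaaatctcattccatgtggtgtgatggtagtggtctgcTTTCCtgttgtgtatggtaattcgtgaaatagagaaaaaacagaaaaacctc
Cd53: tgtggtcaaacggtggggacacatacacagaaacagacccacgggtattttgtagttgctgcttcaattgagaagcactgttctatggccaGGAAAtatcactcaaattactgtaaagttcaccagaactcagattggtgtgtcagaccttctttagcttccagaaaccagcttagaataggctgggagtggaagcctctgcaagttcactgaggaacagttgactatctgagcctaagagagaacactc
Cd68: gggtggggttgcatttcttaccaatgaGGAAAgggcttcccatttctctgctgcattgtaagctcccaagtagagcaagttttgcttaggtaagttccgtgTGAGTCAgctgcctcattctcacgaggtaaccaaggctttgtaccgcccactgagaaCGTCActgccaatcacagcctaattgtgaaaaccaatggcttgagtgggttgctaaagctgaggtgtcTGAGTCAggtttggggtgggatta
Cd82: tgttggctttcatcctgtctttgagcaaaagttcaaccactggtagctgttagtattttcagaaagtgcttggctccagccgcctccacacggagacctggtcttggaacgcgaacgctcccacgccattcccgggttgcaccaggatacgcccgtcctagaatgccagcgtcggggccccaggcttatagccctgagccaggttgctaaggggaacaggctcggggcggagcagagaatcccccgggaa
The Cd47 window shown held 2 adjoining TGACG matches, in a stretch with 73.2% G and C, and Cd68 held 2 AP-1 matches, 1 TGACG and 1 GGAAA. Cd48 and Cd53 held 1 GGAAA each, and the letters of the 4 motifs did not occur in the Cd82 window shown. Of 27025 windows of this length, the first listed for each gene, 55.6% held GGAAA, 6.87% TGANTCA, 17.9% TGACG and 4.65% GCGNGGGCG. A match is a run of letters and shows no binding.

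At 0.8 h, NmU had not changed any tested CD antigen by the adjusted test. The count was 0 of 29 with limma, against 0.845% of all probe sets, with 0.0631% of all called lower. At an unadjusted p under 0.05 there were 3 of 29, and 539 of all 7930. These 3 were Cd80 (93906_s_at), Cd96 and Cd151 (97932_f_at), each lower with NmU. Cd80, a ligand of Cd28, had signals of 18.8, 19.6, 14.6 and 18.4 with NmU, against 24, 35.9, 21.7 and 23.5 in PBS. It was the only tested probe set of the 29 whose groups did not overlap at this time (3.45%, against 5.02% of all), with a log2 fold change of -0.54 ± 0.22 (SE) and an adjusted p of 0.587 (limma). Cd96 averaged 258.6 ± 41.7 with NmU and 353.2 ± 58.5 in PBS (SD, n = 4 each), and these groups overlapped. For Cd28 the log2 fold change was -0.02, with a 95% interval of -0.31 to 0.26.

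At 3 h, Cd47 had the largest called change, with roughly equal decreases of both its probe sets, and smaller changes were called for Cd48 and Cd53. In all 4 of 29 probe sets (13.8%) were called, against 10.2% of all probe sets tested. Of them 1 rose (4.44% of all rose) and 3 fell (5.73% of all fell).

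Cd47 (103611_at) had signals of 818.2, 775.3 and 802 with NmU at 3 h, against 1404, 1497.4, 1391 and 1449.1 in PBS. The lowest PBS array was far above the highest NmU array, with NmU lower by a log2 fold change of -0.85 ± 0.11 (SE, adjusted p = 8.06e-06 by limma). Its other probe set (95020_at) had 244.4, 283.3 and 310.8 with NmU, against 516.1, 587.7, 550.4 and 428 in PBS (-0.89 ± 0.14, adjusted p = 8.78e-05). On the linear scale the signals were 1.80-fold and 1.86-fold higher in PBS. Both calls held in every alternative fit run, with log2 fold changes between -0.99 and -0.80.

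Cd48 had signals of 593.7, 631.3 and 591.6 with NmU at 3 h, against 765.3, 938.1, 758.6 and 851.3 in PBS. The groups did not overlap, and the log2 fold change was -0.45 ± 0.13 (SE, adjusted p = 0.0296 by limma). This call was lost when NmU 3 h replicate 1, 2 or 3 was left out (adjusted p = 0.0947, 0.0566 and 0.0952), without PBS 3 h replicate 2 or 4 (0.0868 and 0.0516), after scaling to a common median (0.132) and with only these 2 groups in the fit (0.116).

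Cd53, a tetraspanin of leukocytes, had signals of 3174.1, 2983.1 and 3026.4 with NmU at 3 h, against 2619.1, 2414.5, 2224.5 and 1914.3 in PBS. All NmU arrays lay above all PBS arrays, and the log2 fold change was 0.43 ± 0.12 (SE, adjusted p = 0.0240 by limma). The call was lost when NmU 3 h replicate 1, 2 or 3 was left out (adjusted p = 0.0936, 0.0545 and 0.0636) and without PBS 3 h replicate 3 or 4 (0.0512 and 0.0743). Without PBS 3 h replicate 4 the log2 fold change was 0.34. It was also lost with only these 2 groups in the fit (0.162) and, at the very threshold, after scaling to a common median.

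Groups also did not overlap at 3 h for Cd37 and Cd79a, which makes 6 of 29 probe sets (20.7%), against 18.7% of all. Cd37, another leukocyte tetraspanin, had 707.2, 642 and 747.1 with NmU, against 897.5, 867.1, 878.8 and 845.3 in PBS (log2 fold change -0.32 ± 0.12, adjusted p = 0.0912). It passed the test in 1 of 31 fits with 1 array left out, that without NmU 0.8 h replicate 4 (adjusted p = 0.0447), and in 0 of 10 other alternatives. Cd28 differed by 0.26, with a 95% interval of -0.04 to 0.57, and Cd52 by -0.02, with an interval of -0.21 to 0.16. The summed signal of the T cell marker list was also higher with NmU at 3 h, at 8618.3 to 9997.8, against 7118.4 to 7526.3 in PBS. Of its 9 tested probe sets 2 were called at 3 h, both higher and both of Zap70. They averaged 2132 and 3482 with NmU, against 1164 and 2053 in PBS. The log2 fold change was -0.02, -0.2, -0.2 and -0.18 for Cd3d, Cd3e, Cd3g and Cd4. It was 0.12 for Lat, 0.35 for Cd247 and 0.59 for the dimmest Zap70 probe set, none of them called. The part of the summed signal in the changes of the antigens was not tested.

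At 6 h, Cd82 was the member with the largest change, Cd68 had also risen and Cd47 remained lower. Of 29 probe sets 4 (13.8%) were called, against 4.88% of all probe sets tested, with 3 higher (2.85% of all) and 1 lower (2.03% of all). The 4 called probe sets were also the 4 whose groups did not overlap, against 12% of all. With single arrays left out, the count was 2 without NmU 6 h replicate 2 or 3 or PBS 6 h replicate 2.

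Cd82, a tetraspanin known to increase on activated human T cells, had signals of 499.9, 736.4, 578.5 and 433.1 with NmU at 6 h, against 337.4, 309.4, 327.7 and 308.7 in PBS (99584_at). The NmU arrays spread widely and still lay above every PBS array, with a log2 fold change of 0.78 ± 0.15 (SE, adjusted p = 0.00243 by limma), or 1.72-fold. The call held in every alternative run. The second probe set (99585_at) had 104, 114.8, 92.9 and 104.7 with NmU, against 79.1, 71, 66.6 and 70.5 in PBS (0.53 ± 0.14, adjusted p = 0.0196). That call was lost without NmU 6 h replicate 2 (adjusted p = 0.0589) and without PBS 6 h replicate 2 or 3 (0.0508 and 0.0585). In PBS 99585_at averaged 78.82, 98.8, 71.8 and 99.32 at 0.8, 3, 6 and 12 h, against 104.1 with NmU at 6 h. Its PBS mean was thus lowest at 6 h, and the NmU mean at 6 h lay near the PBS means at 3 and 12 h.

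Cd47 (103611_at) had signals of 1059.6, 950.2, 836.6 and 1207.5 with NmU at 6 h, against 1405.5, 1332.3, 1387.8 and 1325.5 in PBS. The log2 fold change was -0.44 ± 0.10 (SE, adjusted p = 0.0113 by limma), and the call was lost without NmU 6 h replicate 3 (adjusted p = 0.0696) and with only these 2 groups in the fit (0.0964). The other Cd47 probe set had 398, 331.2, 377.8 and 505.6 with NmU, against 482.6, 492.6, 532.2 and 590.2 in PBS. The highest NmU array reached into the PBS range, and the difference of -0.39 ± 0.13 was not called (adjusted p = 0.0892). In both probe sets that array was replicate 4, and without it 95020_at passed the test (-0.51, adjusted p = 0.0217).

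Cd68 (103016_s_at) had signals of 52.4, 48.2, 52.3 and 47.1 with NmU at 6 h, against 31.2, 30.5, 39.6 and 36.7 in PBS, a log2 fold change of 0.54 ± 0.15 (SE, adjusted p = 0.0370 by limma). The call was lost when NmU 6 h replicate 1, 2 or 3 was left out (adjusted p = 0.0990, 0.0574 and 0.103) and without PBS 6 h replicate 1, 2 or 4 (0.117, 0.126 and 0.0548). It was also lost with either other scaling (0.109 and 0.105), with no filter (0.0518) and with the trend and robust options of limma (0.0709). The letter s in its name marks, in the array maker's naming, probes shared by more than 1 transcript. A second Cd68 probe set (162173_i_at) reached at most 7.6 on the PBS arrays and was not tested. The other 12 measured macrophage and monocyte genes summed to 194.6 to 298.6 with NmU at 6 h, against 217.9 to 258.1 in PBS, and none of their tested probe sets was called. Of the 4 tested probe sets of neutrophil markers, 1 was called at 6 h (4.88% of all were), namely the brighter of 2 for Mpo, the myeloperoxidase of myeloid cells. It averaged 33.4 ± 5.24 with NmU and 18.5 ± 3.41 in PBS (SD, n = 4 each), a log2 fold change of 0.86 ± 0.18 (SE, adjusted p = 0.00484 by limma). The other Mpo probe set averaged 17.5 ± 6.11 with NmU and 19.1 ± 2.72 in PBS and was not called (-0.18 ± 0.25, adjusted p = 0.776). The part of these markers in the Cd68 change was not tested.

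The direction of Cd53 and Cd48 was kept at 6 h without a call. Cd53 had 3356.5, 3067.7, 3308.8 and 2487.2 with NmU, against 2772, 2649.3, 2255.9 and 2326.8 in PBS (log2 fold change 0.28 ± 0.11, adjusted p = 0.168). Cd48 had 635, 615.8, 596.5 and 670.4 with NmU, against 813.1, 773, 818.8 and 650.9 in PBS (-0.27 ± 0.12, adjusted p = 0.232). In each case a single array kept the groups from being separate. For Cd53 it was NmU 6 h replicate 4, and without it and PBS 3 h replicate 4 together Cd53 was called at 6 h (0.38, adjusted p = 0.0297), as it was with quantile normalisation (0.37, adjusted p = 0.0406).

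**Figure D2:**
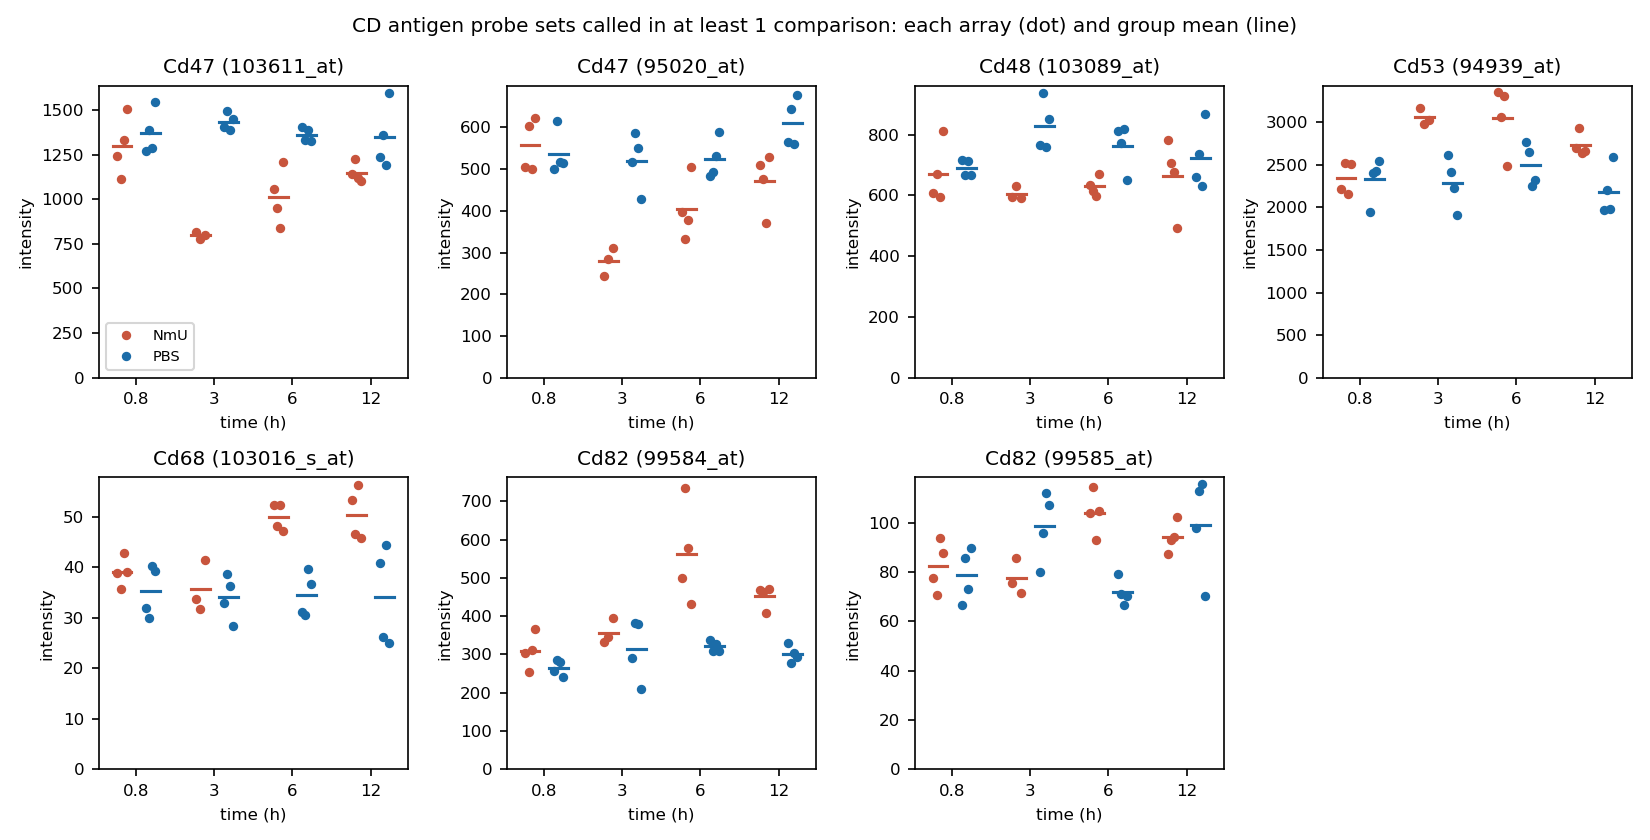
Intensity of the 7 probe sets called in at least 1 comparison (vertical axes from 0) at 0.8, 3, 6 and 12 h, with NmU arrays as red dots left of PBS arrays as blue dots and group means as lines. Both Cd47 panels show the NmU dots lowest at 3 h, at 775.3 to 818.2 and 244.4 to 310.8, and Cd82 (99584_at) shows them highest at 6 h.

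At 12 h, Cd68 alone was called, and in some alternative fits Cd82 was called in its place. The count of 1 in 29 (3.45%) stands beside 1.26% of all probe sets tested, with 0.858% of all called higher and 0.404% lower. Cd68 had signals of 53.3, 46.5, 56.2 and 45.7 with NmU, against 40.8, 26.2, 44.4 and 25 in PBS, a log2 fold change of 0.61 ± 0.15 (SE, adjusted p = 0.0457 by limma). The groups were separate by a narrow margin, between 45.7 and 44.4. The call was lost in 23 of 31 fits with 1 array left out (adjusted p of up to 0.217, without PBS 12 h replicate 2). It was also lost with only these 2 groups in the fit (0.303), with the trend and robust options of limma (0.0922), with no filter (0.0617) and with log2(intensity + 20) and no floor (0.0505). Of the fits with 1 array left out, it held in those without PBS 0.8 h replicate 2, NmU 3 h replicate 3, PBS 3 h replicate 2 or 4, NmU 6 h replicate 4, PBS 6 h replicate 3, and PBS 12 h replicate 1 or 3. The other macrophage and monocyte genes summed to 218 to 281.4 with NmU at 12 h, against 209.7 to 395.9 in PBS.

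Groups did not overlap for 5 of 29 probe sets at 12 h (17.2%, against 7.49% of all), namely Cd68, Cd52, Cd53, Cd47 (95020_at) and Cd82 (99584_at). Cd82 had 468.5, 464.2, 407.1 and 470.2 with NmU, against 329.5, 277.8, 304.2 and 292.9 in PBS. Its log2 fold change of 0.59 ± 0.15 just missed the threshold (adjusted p = 0.0599), while 99585_at differed by -0.05 ± 0.14, so the 2 probe sets of Cd82 disagreed at this time. Without PBS 3 h replicate 4 the first was called (adjusted p = 0.0131). It was also called without PBS 3 h replicate 2 or 3 (0.0440 and 0.0488) or NmU 6 h replicate 2 or 4 (0.0338 and 0.0396). Of 10 other alternatives 6 called it, among them a common median (0.0464) and quantile normalisation (0.0463). The others included log2(intensity + 20) (0.0439), the trend and robust options of limma (0.0336) and only these 2 groups (0.0363), where Cd68 was not called.

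Cd53 had 2705.1, 2940.5, 2641.8 and 2667.2 with NmU at 12 h, against 1966, 2202.6, 1985.3 and 2591.9 in PBS (0.33 ± 0.11, adjusted p = 0.201). Cd52 had 2965.1, 2868.9, 2900.5 and 2926.4 with NmU, against 2473.9, 2561.2, 2444.4 and 2683.4 in PBS (0.20 ± 0.08, adjusted p = 0.348). Cd47 (95020_at) had 509.2, 475.3, 371.3 and 528.6 with NmU, against 564.3, 643.4, 560.5 and 677.7 in PBS (-0.38 ± 0.13, adjusted p = 0.206). All 3 were separate between groups and none passed the adjusted test.

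The effect of NmU differed between times for 3 of 29 probe sets (10.3%), against 4.04% of all probe sets tested (F test of limma on the 4 contrasts). Both probe sets of Cd47 were among them. For 103611_at the log2 fold change was -0.08, -0.85, -0.44 and -0.22 at 0.8, 3, 6 and 12 h (adjusted p = 0.0137), and for 95020_at it was 0.05, -0.89, -0.39 and -0.38 (adjusted p = 0.0246). The third was Cd82 (99585_at), with 0.07, -0.34, 0.53 and -0.05 (adjusted p = 0.0443). Its group means moved in PBS as well, at 78.82, 98.8, 71.8 and 99.32, and were 82.52, 77.63, 104.1 and 94.22 with NmU. For the brighter Cd82 probe set the values were 0.21, 0.22, 0.78 and 0.59, and a difference between times was not called (adjusted p = 0.278). This count was 1 without NmU 0.8 h replicate 4, NmU 3 h replicate 1, or PBS 3 h replicate 2 or 3.

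The antigens that were not called at any time include most of the clone's T cell molecules. Over the 4 times, the log2 fold change of Cd28 ranged from -0.02 to 0.26, that of Cd96 from -0.45 to 0.24, that of Cd7 from -0.38 to 0.26 and that of Cd27 from -0.15 to 0.31. Precision depended on brightness. The 13 tested members with a mean signal over 100 had a median residual SD of 0.18 on the log2 scale, and 5 of them were called. The 16 dimmer ones had 0.34, and 2 of them were called. For all probe sets these SDs were 0.18 and 0.35, with 17% and 8.98% called.

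**Figure D3:**
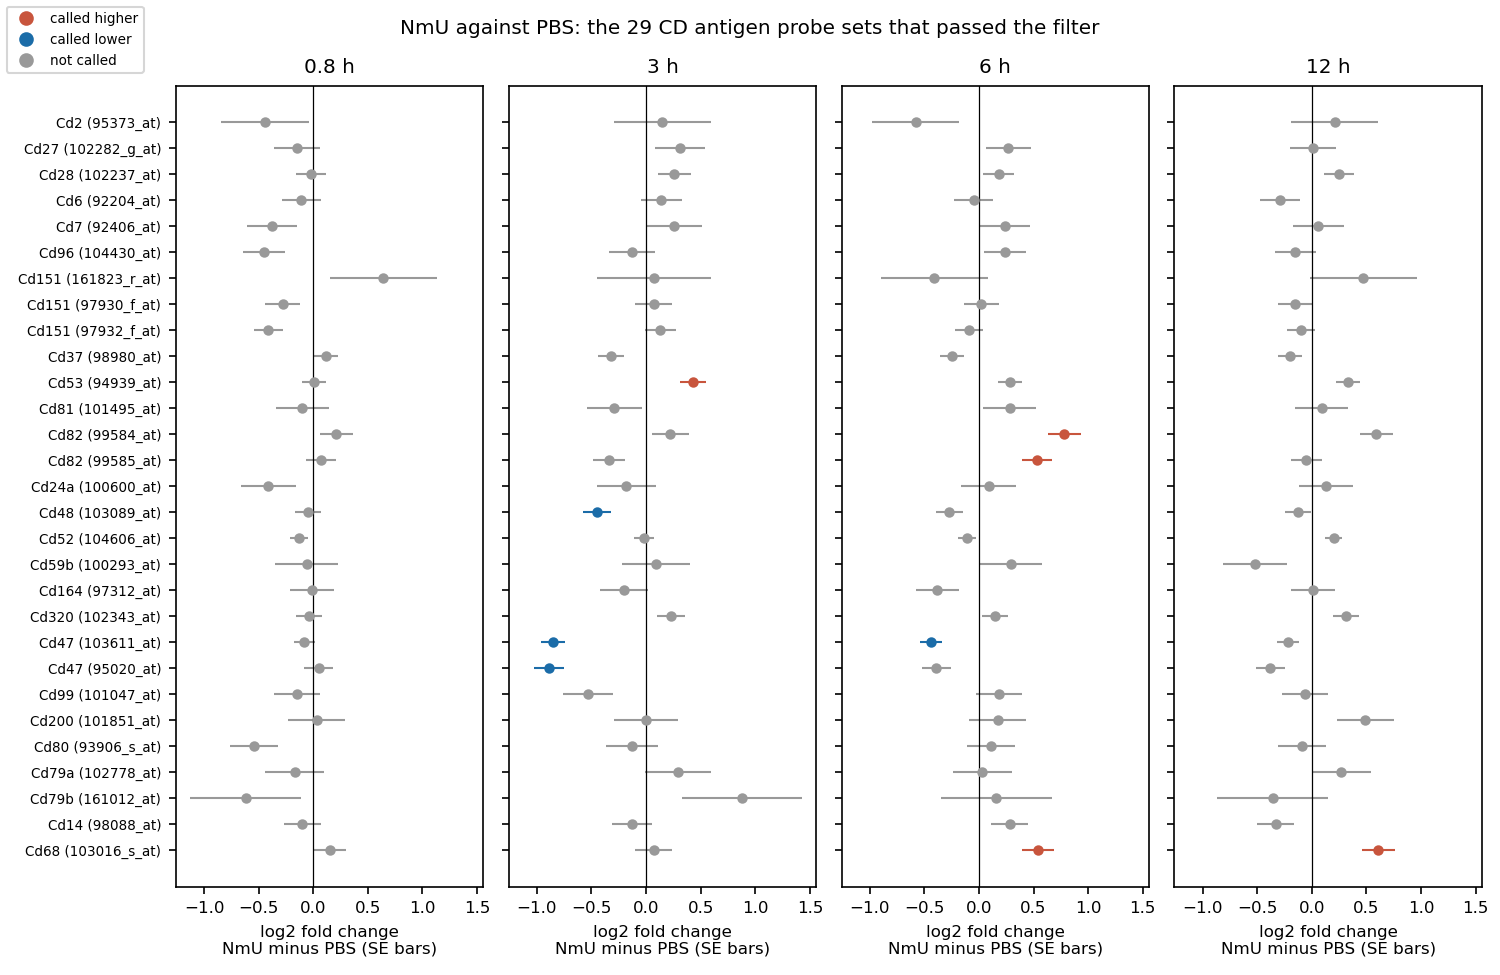
Log2 fold change, NmU minus PBS, of the 29 tested CD antigen probe sets at each time, with bars of 1 SE. Red and blue points are called higher and lower, and grey points are not called. Cd47 lies furthest left at 3 h (-0.85 and -0.89), and Cd82 furthest right at 6 h (0.78).

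CD antigens that go by another gene symbol, from a list of 47 genes of which 41 had a probe set, gave 38 tested probe sets. Of them 1 was higher and 0 lower with NmU at 0.8 h, 6 and 4 at 3 h, 4 and 2 at 6 h, and 1 and 1 at 12 h. Over all 7930 probe sets tested, 0.782% were higher and 0.0631% lower at 0.8 h, and 4.44% and 5.73% at 3 h. These shares were 2.85% and 2.03% at 6 h, and 0.858% and 0.404% at 12 h. The inhibitory receptor Ctla4 averaged 1122 ± 80.6 with NmU and 196.4 ± 44.8 in PBS at 0.8 h (SD, n = 4 each, log2 fold change 2.54 ± 0.32 SE). At 3 h Tnfsf8, the ligand of the receptor CD30, averaged 184.4 ± 42.3 with NmU (SD, n = 3) and 39.5 ± 8.81 in PBS (SD, n = 4). Alcam, the ligand of Cd6, averaged 273 ± 3.91 with NmU (SD, n = 3) and 98.25 ± 33.6 in PBS (SD, n = 4) at 3 h.

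Among those that fell, the tetraspanin Tspan32 averaged 371.5 ± 23.1 with NmU (SD, n = 3) and 670.8 ± 25.6 in PBS (SD, n = 4) at 3 h, a log2 fold change of -0.85 ± 0.09. The chemokine receptor Cxcr4 was lower at 3, 6 and 12 h (-1.25, -1.21 and -0.97). At 12 h the inhibitory receptor Lag3 was higher, with 1175 ± 65.1 with NmU and 802.6 ± 40 in PBS (SD, n = 4 each). Cd40lg, the ligand of Cd40, whose symbol does not match the naming rule, averaged 31.4 ± 13 with NmU (SD, n = 3) and 11.6 ± 4.38 in PBS (SD, n = 4) at 3 h and was not called (1.41 ± 0.48, adjusted p = 0.0612).

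Ligands and intracellular partners of the members formed a list of 22 genes with 18 tested probe sets. At 0.8 h 0 were called, at 3 h 3 were higher and 2 lower, at 6 h 4 were higher and 0 lower, and at 12 h 2 were higher and 0 lower. Over all probe sets tested, 0.845%, 10.2%, 4.88% and 1.26% were called at these times. Traf5, an adaptor of Cd27 and related receptors, rose by a log2 fold change of 0.75 ± 0.10 at 3 h and 0.45 ± 0.09 at 6 h. Sh2d2a, a T cell adaptor protein, rose by 1.00 ± 0.12 at 3 h, and Traf1 by 1.42 ± 0.24 at 12 h. Both probe sets of Pstpip1, which binds the tail of Cd2, fell at 3 h (-0.68 ± 0.16 and -0.64 ± 0.19). The phosphatase Ptpn6 rose at 3, 6 and 12 h (0.56, 0.66 and 0.53). Sirpa, the receptor of Cd47, had 3 probe sets with medians of 3.95, 7.55 and 6.1 in PBS and was not tested.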

How the data were processed

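Total RNA of 31 samples was measured on 1 single-colour oligonucleotide array each, and samples were grouped by their titles. The values analysed are the intensity per probe set that the authors deposited, on a linear scale. The scanner, the probe summary and the scaling were not given in the sources used here. After 2% of probe sets were trimmed at each end, the array means lay between 150.095 and 150.113, so the arrays share a scale and no further normalisation was applied. A change is therefore relative to the total signal of an array.

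The deposited intensities were floored at 5.8, the 20th percentile over the whole table, before conversion to log2. Of 12488 probe sets, 66 controls were left out and 7930 were kept, with a group mean above 20.2 (40th percentile) in at least 1 group. The probe annotation gave 10833 probe sets a single symbol, 396 several and 1193 none, and RefSeq (GRCm38.p6) changed 0 symbols. A model with 8 group means was fitted to all arrays with limma 3.58.1 in R 4.3.3 (23 residual and 2.72 prior degrees of freedom). Tests were two-sided, and p-values were adjusted by Benjamini-Hochberg over the 7930 probe sets, with calls under 0.05. The procedure was tested on simulated data.

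The members, roles, gene lists and tests were chosen with earlier results of these data known. Any member could be named, and from other lists up to 4 genes with the lowest p in a contrast. Further genes of the marker lists were named for their PBS signal. No table of proteins was used here. Alternatives changed the floor, the offset, the filter, the scaling, the eBayes options, the samples fitted, the naming rule and a replicate block.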

Additional observations from a re-analysis of the deposited data

Results flagged for a closer look

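Of 203 tests of a single array against the other 3 of its group, 11 (5.42%) stood apart, and chance alone gives about 1 in 20. Cd52 was high on PBS 0.8 h replicate 1 (2952.9, against 2482.5 to 2540.3) and on PBS 6 h replicate 1 (3193.5, against 2729.3 to 2802.5). Cd47 (95020_at) was high on PBS 0.8 h replicate 2 (614.8, against 500.6 to 517.8). Cd59b was high on PBS 6 h replicate 3 (27.2, against 15.4 to 16.8), and Cd14 on PBS 3 h replicate 1 (83.6, against 70.4 to 71.6).

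Cd7 was low on NmU 12 h replicate 3 (34.9, against 50.9 to 54.6) and high on PBS 12 h replicate 2 (70.5, against 38.1 to 40.5). Cd96 was low on PBS 12 h replicate 4 (237.6, against 377.5 to 407.7), and Cd2 was high on NmU 12 h replicate 4 (28.6, against 14.9 to 16.2). Cd151 (97930_f_at) was high on NmU 6 h replicate 1 (157.1, against 105.6 to 113), and Cd82 (99584_at) was low on NmU 12 h replicate 3 (407.1, against 464.2 to 470.2).

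The NmU effect differed between times for Cd47 (103611_at, adjusted p = 0.0137, and 95020_at, adjusted p = 0.0246) and for Cd82 (99585_at, adjusted p = 0.0443), by limma's F test on the 4 contrasts.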

How the results depend on the processing

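Signs of called changes did not reverse in any alternative. At 0.8 h and for time in PBS the count stayed at 0 throughout. The count at 3 h was 2, both of them Cd47, with arrays scaled to a common median, with the replicate block and with only the 2 groups compared, against 4 as reported, and 2 to 5 with single arrays left out. At 6 h it ranged from 3 to 6 over the other alternatives and from 2 to 5 with single arrays left out. At 12 h it was 0 with no filter and 2 with a common median, with quantile normalisation, and without PBS 3 h replicate 4 and NmU 6 h replicate 4 together (chosen after seeing the data), against 1 as reported, and 0 to 2 with single arrays left out. The F test over all times called 5 to 8. The F test between times called 1 probe set with the replicate block, against 3, and 1 to 3 with single arrays left out. Deviations of same-numbered arrays from their group means correlated at -0.22 to 0.2 over 15 pairs, 4 of them over 0.1. Of 15 NmU arrays 7 correlated best with their own number (3 of 4 at 0.8 h, 1 of 3 at 3 h, 2 of 4 at 6 h and 1 of 4 at 12 h). With 3 or 4 arrays in a group, these values do not settle whether the numbers pair the samples. With the replicate block Cd48 and Cd53 were not called at 3 h (adjusted p = 0.132 and 0.0641), while Cd47 (95020_at) was called at 6 h (adjusted p = 0.0271). The block could not be run for time in PBS, since it takes up the times. Dim members had a median residual SD of 0.34, so their changes were in general harder to call. The dim Cd68 and Cd82 (99585_at) were still called, at log2 fold changes of 0.54 and 0.61 for Cd68 and 0.53 for Cd82.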
